A study of Mus musculus with 12 samples.

Results

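The unfolded protein and integrated stress responses were followed through 33 named genes, found by symbol among the 55414 Ensembl identifiers of the count table. All 33 were found, and all 33 passed the filter on low counts, as did 14435 genes of the table. They fall into an ATF4 arm of 16 genes, 8 regulators and 8 enzymes of amino acid synthesis, and an endoplasmic reticulum (ER) arm of 17 genes, 4 sensors and factors, 4 degradation genes and 9 folding genes. The cells were 3T3-L1, a mouse fibroblast line that is a standard model of preadipocytes, carrying either FHL2-GFP (labelled FHL2 overexpression) or CTRL-GFP. FHL2 is a LIM-domain cofactor of transcription. The 4 groups were FHL2 at day 2, FHL2 at day 0, CTRL at day 2 and CTRL at day 0, with 3 libraries each. Day 0 cells were past confluence, and day 2 cells had been given 170 nM insulin, 1 uM dexamethasone and 0.5 mM isobutylmethylxanthine, the hormonal mix that starts fat cell formation. All groups grew in DMEM with 10% fetal bovine serum. No group kept 2 days without the mix is among the samples, so induction, time in culture and any batch cannot be told apart.

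The ER lumen is where secreted and membrane proteins fold, and a surplus of unfolded proteins there is read by the membrane sensors IRE1 (Ern1), PERK (Eif2ak3) and ATF6. IRE1 cuts the Xbp1 messenger so that it encodes an active factor, ATF6 is cleaved to release another, and both raise chaperone and degradation genes. PERK phosphorylates the initiation factor eIF2, as do kinases that read amino acid shortage, double-stranded RNA and haem. That lowers protein synthesis in general but raises translation of ATF4, whose targets include genes of serine, asparagine and proline synthesis and the factor CHOP (Ddit3). Counts per gene show neither the cut of Xbp1 nor the translation of Atf4 nor the phosphorylation of eIF2.

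Library totals ran from 10047708 to 21872139 counts, and levels are CPM, counts scaled to a common library total, after TMM scaling. A gene was called where edgeR's quasi-likelihood test gave a Benjamini-Hochberg adjusted p under 0.05 over all genes tested. The labels do not say that the libraries of a group came from separate cultures, so a p measures the spread between libraries, which may be technical. In bulk RNA, fewer cells of a type and less RNA per cell cannot be told apart. Day 2 libraries held a count for 12689 to 16131 genes, against 17977 to 18811 at day 0, and varied more, with a biological coefficient of variation of 0.4725 against 0.1208. The main fit holds 1 estimate of spread per gene for all 12 libraries. Between the lines, a p can thus understate the spread at day 2 and overstate it at day 0. Fhl2 itself was not higher in libraries labelled FHL2: it had 18.7, 9.91 and 22.6 CPM in FHL2 cells, against 13.9, 14.2 and 21.0 CPM in CTRL cells at day 2 (log2 fold change 0.075, edgeR adjusted p = 0.914), so the directions between lines follow the labels. The 8 preadipocyte and fibroblast markers summed to between 16670 and 20620 CPM in all groups. The 7 adipocyte markers summed to between 120.9 and 147.0 CPM in FHL2 day 2 libraries, 24.4 and 26.1 in FHL2 day 0, 170.8 and 222.5 in CTRL day 2 and 25.6 and 30.9 in CTRL day 0, where Adipoq, Plin1 and Cidec had no count in either line at day 0. Markers of blood, endothelium, epithelium and muscle summed to at most 3.95 CPM per list.

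Promoter stretches from RefSeq (assembly GRCm38.p6) show the letters by which the 2 arms are usually told apart. Of the 33 members, 30 matched the table, which covers 250 bases before to 50 bases after the start of each of 27025 genes. The amino acid response element, bound by ATF4 with a partner, was searched as TGATGNAA on both strands and found in 5 of the 16 ATF4 arm promoters (Asns, Atf3, Chac1, Pycr1 and Trib3) and in 1 of the 14 ER arm promoters (Herpud1), against 4.51% of all promoters. The stretches below show it in capitals, as it reads on the gene's strand, for the 4 ATF4 arm genes whose match lies before the start.
Asns, chr6:7693210-7693309 (-): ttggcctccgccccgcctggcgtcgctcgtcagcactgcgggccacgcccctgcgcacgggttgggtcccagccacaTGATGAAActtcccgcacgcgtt
Atf3, chr1:191183391-191183490 (-): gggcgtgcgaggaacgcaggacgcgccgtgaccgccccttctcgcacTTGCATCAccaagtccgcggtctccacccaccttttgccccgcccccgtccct
Chac1, chr2:119351002-119351101 (+): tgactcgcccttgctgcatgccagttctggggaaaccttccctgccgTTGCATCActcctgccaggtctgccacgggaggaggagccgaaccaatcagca
Pycr1, chr11:120643799-120643898 (-): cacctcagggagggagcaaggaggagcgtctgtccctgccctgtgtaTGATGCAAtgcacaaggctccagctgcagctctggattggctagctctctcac
The ER stress response element, which ATF6 and XBP1 bind together with NF-Y, was searched as CCAAT and CCACG with 9 bases between them, on both strands. It was found in 5 of 14 ER arm promoters (Calr, Canx, Creld2, Pdia6 and Syvn1), in 0 of 16 ATF4 arm promoters and in 0.137% of all promoters. The 5 stretches are shown because the genes that share the element had unlike changes between the days, as given below, where the fall of Canx and the rise of Syvn1 were calls only without the GC offset.
Calr, chr8:84847035-84847134 (-): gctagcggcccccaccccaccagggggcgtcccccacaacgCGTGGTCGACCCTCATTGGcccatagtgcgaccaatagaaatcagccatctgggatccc
Creld2, chr15:88819479-88819578 (+): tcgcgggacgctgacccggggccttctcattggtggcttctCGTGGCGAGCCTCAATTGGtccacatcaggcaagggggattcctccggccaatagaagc
Syvn1, chr19:6046476-6046575 (+): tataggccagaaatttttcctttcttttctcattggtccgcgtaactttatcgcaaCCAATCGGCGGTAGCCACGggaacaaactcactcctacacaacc
Pdia6, chr12:17266450-17266549 (+): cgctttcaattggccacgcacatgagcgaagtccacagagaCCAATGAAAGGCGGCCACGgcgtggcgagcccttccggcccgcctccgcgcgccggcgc
Canx, chr11:50325760-50325859 (-): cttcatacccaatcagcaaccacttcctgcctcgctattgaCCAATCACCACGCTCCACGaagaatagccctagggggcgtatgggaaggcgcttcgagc
Herpud1 held both kinds of letters. Its promoter matched the second form of the ER element, ATTGG and CCACG with 1 base between them, found in 0.0444% of all promoters, and further upstream the amino acid response core. The first stretch has the ER form and the second the amino acid form in capitals.
Herpud1, chr8:94386329-94386428 (+): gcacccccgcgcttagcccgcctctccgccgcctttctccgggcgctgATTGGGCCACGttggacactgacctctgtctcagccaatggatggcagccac
Herpud1, chr8:94386270-94386369 (+): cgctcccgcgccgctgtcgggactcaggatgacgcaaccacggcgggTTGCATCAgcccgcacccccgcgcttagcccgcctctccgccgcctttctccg
The core TGACGTGG, read on either strand, was in none of the 30 member promoters and in 0.714% of all. A match is a run of letters, not a shown binding site.

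Per kilobase of exon, Calr (calreticulin, a lectin chaperone) had the highest level of the 33 in each group, 1164 ± 123 CPM per kb in FHL2 day 2, 583 ± 24.1 in FHL2 day 0, 1225 ± 102 in CTRL day 2 and 583 ± 31.00 in CTRL day 0 (mean ± SD, n = 3). At day 2 it was followed by Atf5, at 270.1 ± 17.5 in FHL2 and 224 ± 9.47 in CTRL. At day 0 the second place was held by Pdia3, a disulfide isomerase, at 270.5 ± 6.49 in FHL2 and 259.6 ± 11.2 in CTRL. Atf4 stood at 132 ± 12.7 CPM per kb in FHL2 day 2, 121 ± 4.67 in FHL2 day 0, 125 ± 4.16 in CTRL day 2 and 125 ± 1.36 in CTRL day 0. The sensors were at the low end. Ern1 was between 3.71 and 5.04, Eif2ak3 between 3.60 and 5.84 and Atf6 between 3.33 and 5.36 CPM per kb as group means. The means of Eif2ak3 and Atf6 lay within their SDs of each other in FHL2 at both days. In CTRL at day 2 they lay within the SD of Atf6 (0.71) but not within that of Eif2ak3 (0.090). Atf3, an immediate stress factor, was the lowest in each group, at 2.25 in FHL2 day 2, 3.32 in FHL2 day 0, 1.44 in CTRL day 2 and 1.98 in CTRL day 0. The members varied less between libraries than other genes did: the median coefficient of variation of the 33 was 12.1% in FHL2 day 2, 5.13% in FHL2 day 0, 10.1% in CTRL day 2 and 4.70% in CTRL day 0, against 17.9%, 7.76%, 16.5% and 8.31% in the same order over all genes that averaged 5 CPM or more in the group. That comparison is a description and takes no account of the members' higher levels.

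**Figure D1:**
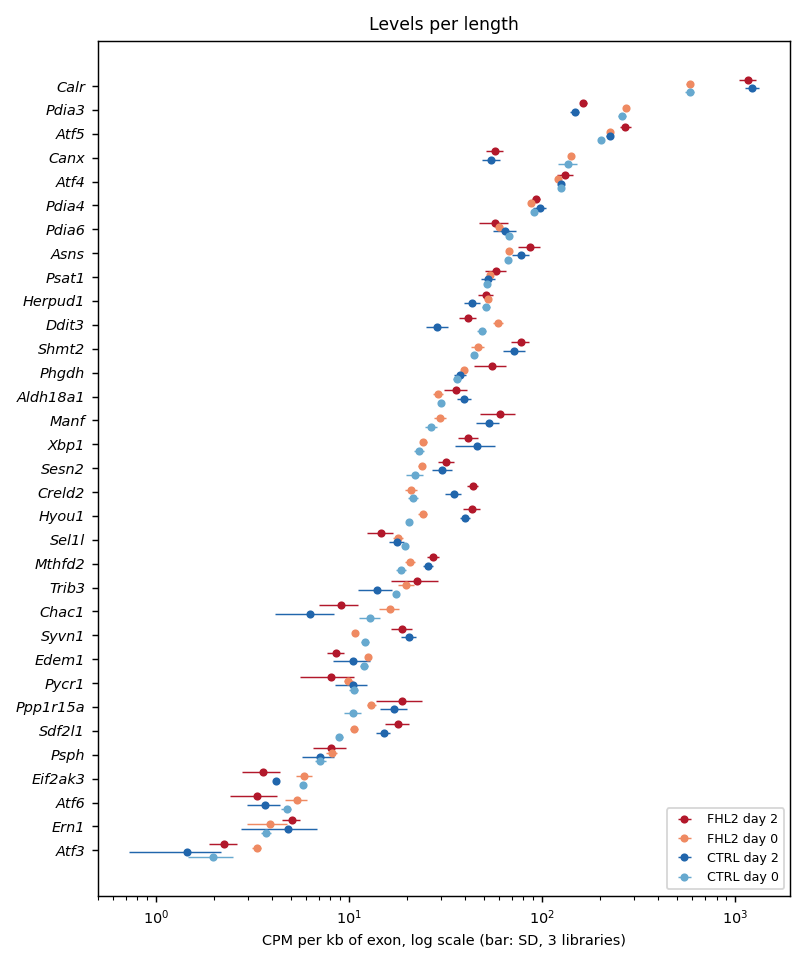
Mean level per length of each gene in the 4 groups, in CPM per kb of exon on a log scale, with bars of 1 SD over 3 libraries; genes are ordered by their CTRL day 0 level. Calr lies at the top in each group and Atf3 at the bottom, and the day 2 points of Canx and Pdia3 lie left of their day 0 points.

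Between day 0 and day 2 the stress response genes moved in both directions, and in much the same way in both lines. In FHL2 cells 15 of the 33 were called higher and 8 lower at day 2, where 25.8% of all genes tested were called higher and 30.2% lower (56.0% in all). In CTRL cells 12 were called higher and 5 lower, where 26.3% of all genes were higher and 30.8% lower (57.1% in all). The members called higher were 45.5% of the 33 in FHL2 and 36.4% in CTRL, above that background, and those called lower 24.2% and 15.2%, below it. These shares have no test of their own, and with the GC offset described below those called higher were 24.2% in each line and those called lower 27.3%. All 12 and all 5 calls of CTRL cells were also calls of FHL2 cells. The median log2 change of the 33 was 0.19 in FHL2 and 0.045 in CTRL, beside -0.11 and -0.14 over all genes. Setting aside CTRL replicate 3 and FHL2 replicates 1 and 2 of day 2, which had a count for the fewest genes, 17 were higher and 7 lower in FHL2 cells and 15 and 6 in CTRL cells, where 56.1% and 63.5% of all genes were called. That leaves 1 FHL2 library at day 2, which the fit assumes to vary like the other groups. Those shares of all genes count both directions together. They give no background for the higher or the lower members alone.

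**Figure D2:**
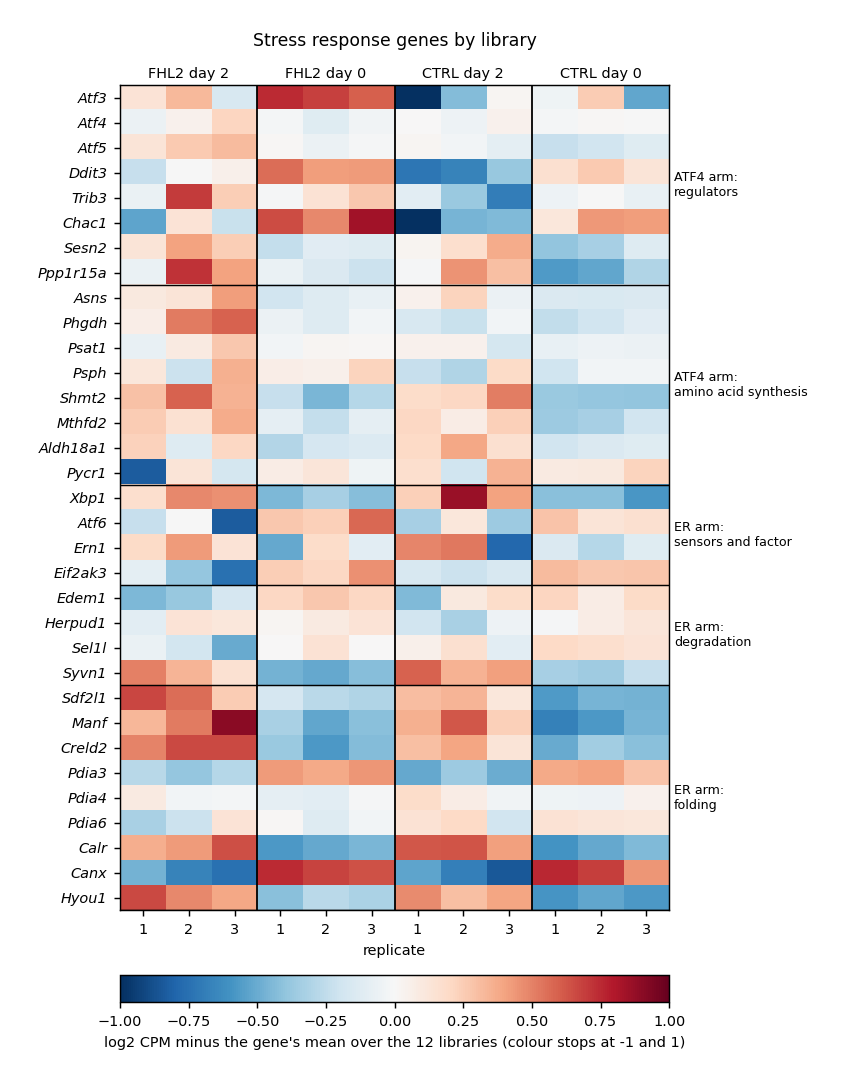
Level of each of the 33 genes in each of the 12 libraries, as log2 CPM minus the gene's mean over all libraries; red is above and blue below that mean, and colours stop at 1 and -1. Chaperones such as Manf, Calr and Hyou1 are red in all 6 day 2 libraries, Canx and Pdia3 are blue in them, and Atf3, Ddit3 and Chac1 are reddest in the FHL2 day 0 libraries.

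GC content has to be read beside each of these changes. Across 10442 genes the change between days rose with the GC content of the transcript (Spearman's rho 0.67 in FHL2 and 0.689 in CTRL, a description over genes that share libraries), and across the 33 members rho was 0.457 in FHL2 and 0.369 in CTRL. The ATF4 arm had a median GC content of 54.6%, the ER arm 50.6% and all tested genes 49.4%. A second fit therefore gave each library an offset along GC content, and another fit added one along transcript length. With the GC offset 8 members were called higher and 9 lower in each line, beside 20.4% and 19.7% of all genes in FHL2 and 20.7% and 19.3% in CTRL (40.0% in all in each line). Of the FHL2 calls without the offset, 6 of the 15 higher and 3 of the 8 lower were also calls with it, and of the CTRL calls 5 of the 12 and 3 of the 5. The ATF4 arm had 3 higher and 6 lower in FHL2 under the offset, in place of 8 and 2, and 2 higher and 6 lower in CTRL, in place of 5 and 2. With length added 6 members were higher and 10 lower in FHL2, beside 19.4% of all genes in each direction (38.8% in all), and 10 and 11 in CTRL, beside 19.8% and 19.3% (39.1% in all). Calls that stood without the offset, with it and with length added were Asns, Calr, Hyou1 and Manf higher in FHL2, Calr, Hyou1, Manf, Mthfd2 and Xbp1 higher in CTRL, and Chac1, Eif2ak3 and Pdia3 lower in both lines. Whether library chemistry or the cells set the dependence on GC content was not tested.

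**Figure D3:**
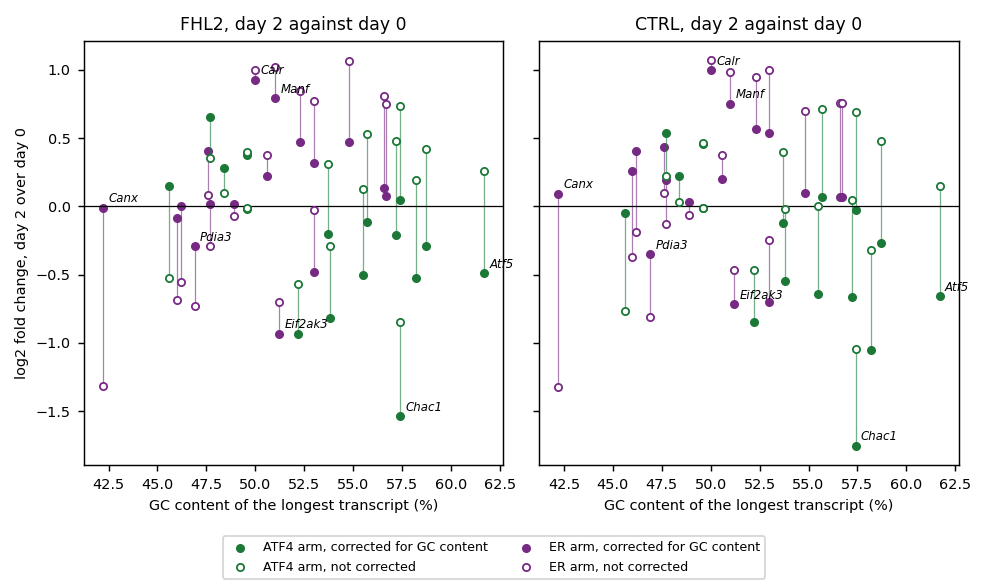
Log2 fold change of day 2 over day 0 against the GC content of each gene's longest transcript, in FHL2 (left) and CTRL (right); open points are values without a correction, filled points values after the GC correction, and a line joins the 2 values of a gene. ATF4 arm genes (green) of high GC content, such as Atf5, lie above 0 before the correction and below it after, Canx goes from the lowest ER arm value to near 0, and Calr and Manf stay well above 0.

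Among the ER sensors and their factor, Xbp1 was higher at day 2 and Eif2ak3 lower in both lines. Xbp1 (ENSMUSG00000020484) had 117, 145 and 143 CPM in FHL2 cells at day 2, against 76.2, 82.8 and 77.5 CPM at day 0. In CTRL cells it had 123, 189 and 138 CPM at day 2, against 77.9, 77.6 and 69.4 CPM at day 0. All day 2 libraries lay above all day 0 libraries within each line, and the rise was called in FHL2 (log2 fold change 0.77, SE 0.14, edgeR adjusted p = 0.000373) and in CTRL (log2 fold change 1.00, SE 0.14, edgeR adjusted p = 4e-05). After the GC offset it was 0.32 in FHL2 (adjusted p = 0.082), no longer a call, and 0.54 in CTRL (adjusted p = 0.0071). Eif2ak3 (ENSMUSG00000031668), which encodes PERK, had 26.6, 21.7 and 16.9 CPM at day 2 in FHL2 cells, against 33.7, 32.8 and 38.98 CPM at day 0. Its CTRL libraries had 25.4, 24.5 and 25.4 CPM at day 2, against 35.4, 34.2 and 34.5 CPM at day 0. The days did not overlap in either line, and Eif2ak3 fell by 0.70 on the log2 scale in FHL2 (SE 0.17, edgeR adjusted p = 0.00337) and by 0.47 in CTRL (SE 0.17, edgeR adjusted p = 0.0317). The CTRL call was lost on leaving out any of the 6 CTRL libraries (adjusted p 0.0638 to 0.0895), and the GC offset made both changes larger, -0.93 in FHL2 and -0.72 in CTRL.

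Atf6, the sensor that is itself a factor, had 32.6, 38.2 and 21.5 CPM in FHL2 cells at day 2 and 46.2, 45.1 and 57.1 CPM at day 0, a called fall (log2 fold change -0.69, SE 0.20, edgeR adjusted p = 0.0101). Its CTRL change was -0.37 (adjusted p = 0.132) and not called. The FHL2 call was lost when FHL2 day 0 replicate 3 was left out (adjusted p = 0.0512) and after the GC offset (-0.083, adjusted p = 0.769), and the value turned to 0.26 with length added. In CTRL Atf6 was then called higher (0.54, adjusted p = 0.0217). Ern1, which encodes IRE1, was not called, at 41.2 ± 4.39 CPM in FHL2 day 2, 31.7 ± 7.47 CPM in FHL2 day 0, 39.3 ± 16.7 CPM in CTRL day 2 and 30.4 ± 1.80 CPM in CTRL day 0. One library set the CTRL value: its 3 day 2 libraries had 48.2, 49.6 and 20.00 CPM, and without CTRL day 2 replicate 3, also the library with the fewest genes, Ern1 was called higher in CTRL (log2 fold change 0.75, edgeR adjusted p = 0.00402) in place of 0.38 (adjusted p = 0.255).

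Without the GC offset the largest rise of the 33 was that of a folding gene in each line. It was that of Creld2 in FHL2 (1.06) and of Calr in CTRL (1.07), where Xbp1 came next (1.00). In both lines 5 of the 9 folding genes were called higher (Calr, Manf, Hyou1, Creld2 and Sdf2l1) and 2 lower (Canx and Pdia3). Of all genes tested, 25.8% were called higher and 30.2% lower in FHL2, and 26.3% and 30.8% in CTRL. The median log2 change of the 9 was 0.75 in FHL2 and 0.70 in CTRL, beside -0.11 and -0.14 over all genes. After the GC offset 5 were called higher and 1 lower in FHL2, and 4 and 1 in CTRL. Of all genes 20.4% were then called higher and 19.7% lower in FHL2, and 20.7% and 19.3% in CTRL. The median of the 9 was 0.41 in FHL2 and 0.096 in CTRL with that offset, and 0.19 and 0.14 with length added. Their summed level was 5173 ± 388 CPM in FHL2 day 2, 3944 ± 67.7 in FHL2 day 0, 5261 ± 398 in CTRL day 2 and 3886 ± 46.6 in CTRL day 0. Calr gave the largest part of that sum in each group. It had 3080, 3225 and 3754 CPM in FHL2 cells at day 2, against 1608, 1679 and 1747 CPM at day 0. Its CTRL libraries had 3689, 3706 and 3191 CPM at day 2, against 1588, 1681 and 1766 CPM at day 0. Every day 2 library was above every day 0 library in its line, by 1.00 on the log2 scale in FHL2 (SE 0.087, edgeR adjusted p = 3.83e-07) and 1.07 in CTRL (SE 0.087, edgeR adjusted p = 1.88e-07). After the GC offset the rise was still 0.93 in FHL2 and 1.00 in CTRL, both called. The annotation also lists a Calr pseudogene, so reads that both share make this value less certain.

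Manf, an ER-resident protein that is also secreted under ER stress, had 176, 200.1 and 261 CPM at day 2 in FHL2 cells, against 112, 97.5 and 105 CPM at day 0. In CTRL cells the libraries had 179, 215 and 165 CPM at day 2, against 87.4, 93.7 and 101 CPM at day 0. Its rise (log2 fold change 1.02, SE 0.14, edgeR adjusted p = 2.6e-05 in FHL2 and log2 fold change 0.99, SE 0.14, edgeR adjusted p = 3.48e-05 in CTRL) held with the GC offset at 0.79 and 0.75. Hyou1, the nucleotide exchange factor of the ER chaperone BiP, had 347, 305 and 286 CPM in FHL2 day 2, against 164, 182 and 176 CPM in FHL2 day 0. In CTRL it had 304, 269.5 and 288 CPM at day 2, against 146, 153 and 147 CPM at day 0. No day 2 library overlapped a day 0 library for Manf or Hyou1, and Hyou1 rose by 0.84 in FHL2 (edgeR adjusted p = 2.42e-06) and 0.95 in CTRL (edgeR adjusted p = 8.17e-07), with 0.47 and 0.56 after the GC offset. Creld2, an ER stress-induced protein whose promoter carries the ER stress response element, had 55.4, 61.95 and 62.04 CPM in FHL2 day 2, against 30.4, 26.4 and 28.98 CPM in FHL2 day 0. Its CTRL values were 48.2, 51.5 and 42.8 CPM at day 2, against 27.7, 30.9 and 29.4 CPM at day 0. The rise was 1.06 in FHL2 (edgeR adjusted p = 1.01e-05) and 0.70 in CTRL (edgeR adjusted p = 0.000423). After the GC offset it was 0.47 (adjusted p = 0.00884) and 0.096 (adjusted p = 0.591), so the CTRL call was lost, and with length added it was 0.19 and -0.12, neither called. Sdf2l1, a small partner of BiP, averaged 19.8 ± 2.85 CPM in FHL2 day 2 and 11.8 ± 0.56 CPM in FHL2 day 0, and 16.7 ± 1.38 CPM in CTRL day 2 and 9.88 ± 0.378 CPM in CTRL day 0. Both rises, 0.75 and 0.76, were called with edgeR and lost under the GC offset (0.077 and 0.070).

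Canx (calnexin), the membrane-bound counterpart of Calr in the same folding cycle of glycoproteins, went the other way. It had 296, 259 and 245 CPM in FHL2 cells at day 2, against 691, 656 and 641 CPM at day 0. In CTRL cells it had 285, 256 and 228 CPM at day 2, against 695, 666 and 560.0 CPM at day 0. The days were far apart in both lines, and Canx fell by 1.31 on the log2 scale in FHL2 (SE 0.11, edgeR adjusted p = 2.05e-07) and by 1.32 in CTRL (SE 0.11, edgeR adjusted p = 1.83e-07). Canx also has the lowest GC content of the 33, 42.2%, and after the GC offset its change was -0.0085 in FHL2 and 0.092 in CTRL, with neither called. Pdia3, the isomerase that works with Calr and Canx, had 526, 488 and 522 CPM in FHL2 day 2, against 856, 826 and 866 CPM in FHL2 day 0. Its CTRL libraries had 447, 494 and 452 CPM at day 2, against 829, 841 and 775 CPM at day 0. No libraries overlapped. It fell by 0.73 in FHL2 (edgeR adjusted p = 1.17e-06) and 0.81 in CTRL (edgeR adjusted p = 4.28e-07), and the smaller changes after the GC offset, -0.29 and -0.35, were still called. The other isomerases had no call: Pdia4 averaged 224 ± 10.2 CPM in FHL2 day 2, 211 ± 7.58 CPM in FHL2 day 0, 234 ± 17.3 CPM in CTRL day 2 and 219 ± 7.94 CPM in CTRL day 0. Pdia6 averaged 213 ± 37.02 CPM in FHL2 day 2, 224 ± 11.4 CPM in FHL2 day 0, 241 ± 33.7 CPM in CTRL day 2 and 253 ± 2.98 CPM in CTRL day 0. With the GC offset Pdia4 became a called rise in FHL2 (0.41, adjusted p = 0.00137) and in CTRL (0.44, adjusted p = 0.000831). Of the 5 genes that share the ER stress response element, then, Calr, Creld2 and Syvn1 were called higher, Pdia6 was not called and Canx was called lower in both lines. Under the GC offset Calr was still called in both lines and Creld2 in FHL2, and none of the 5 was called lower.

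Of the degradation genes, Syvn1, the ubiquitin ligase HRD1 of the ER membrane, was higher at day 2. It had 103, 91.7 and 80.5 CPM in FHL2 day 2, against 52.4, 50.8 and 53.9 CPM in FHL2 day 0. The CTRL libraries had 109, 92.2 and 96.2 CPM at day 2, against 57.5, 56.7 and 61.7 CPM at day 0. The days did not overlap, and the rise was called in FHL2 (log2 fold change 0.81, SE 0.12, edgeR adjusted p = 3.81e-05) and CTRL (log2 fold change 0.76, SE 0.12, edgeR adjusted p = 6.49e-05), but was 0.14 and 0.068 after the GC offset and no longer called. Sel1l, its adaptor, averaged 125 ± 18.9 CPM in FHL2 day 2 and 153 ± 9.001 CPM in FHL2 day 0 (edgeR log2 fold change -0.29, adjusted p = 0.0395), and 152 ± 13.7 CPM in CTRL day 2 and 166 ± 3.57 CPM in CTRL day 0 (-0.13, adjusted p = 0.355). The FHL2 call of Sel1l was lost on leaving out any library except CTRL day 0 replicates 1 and 3, CTRL day 2 replicate 3 and FHL2 day 2 replicate 1 (adjusted p 0.0511 to 0.222). It was lost after the GC offset too (0.017, adjusted p = 0.918), and with length added Sel1l was called higher in FHL2 (0.31, adjusted p = 0.00458) and in CTRL (0.42, adjusted p = 0.000379). Edem1, which marks misfolded glycoproteins for disposal, was called lower in FHL2, at 50.6, 53.03 and 61.4 CPM at day 2 against 79.8, 83.2 and 79.9 CPM at day 0 (log2 fold change -0.56, SE 0.15, edgeR adjusted p = 0.0052). In CTRL it was 50.9, 74.1 and 78.7 CPM against 80.2, 72.7 and 78.8 CPM and not called. With the GC offset Edem1 stood at 0.0031 in FHL2 and was called higher in CTRL (0.40, adjusted p = 0.0414). Herpud1, a membrane part of the same complex with both kinds of promoter element, was not called, with means of 119 ± 10.96 CPM in FHL2 day 2, 122 ± 5.11 CPM in FHL2 day 0, 101 ± 9.52 CPM in CTRL day 2 and 119.9 ± 5.64 CPM in CTRL day 0. Its CTRL value lay close to the threshold (log2 fold change -0.25, edgeR adjusted p = 0.0533) and was a called fall with RLE scaling (adjusted p = 0.0443), limma-voom (0.0422) and DESeq2 (0.0282), and without the 3 sparse libraries (0.0316). After the GC offset it was called lower in both lines, at -0.48 and -0.70.

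**Figure D4:**
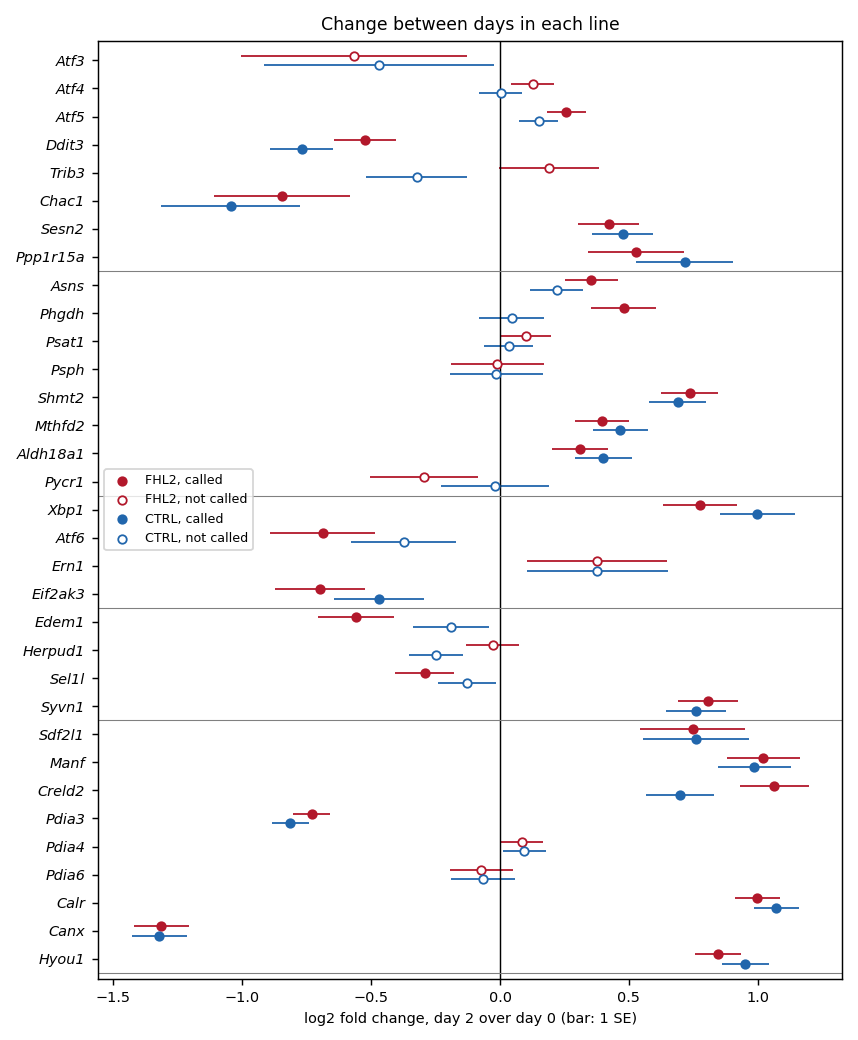
Log2 fold change of day 2 over day 0 for the 33 genes in FHL2 (red) and CTRL (blue), without a GC correction, with bars of 1 SE; filled points were called by edgeR at an adjusted p under 0.05 and open points were not, and grey lines part the 5 roles. The points of the 2 lines lie close together for most genes, Calr, Manf and Creld2 are the furthest right in FHL2, and Canx the furthest left in both lines.

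In the ATF4 arm the regulators had calls in both directions. Of all genes tested, 25.8% were called higher and 30.2% lower in FHL2, and 26.3% and 30.8% in CTRL. With the GC offset these shares were 20.4% and 19.7% in FHL2, and 20.7% and 19.3% in CTRL. Whether the regulators differ from these shares was not tested. Of the 8 regulators, 3 were called higher (Atf5, Sesn2 and Ppp1r15a) and 2 lower (Ddit3 and Chac1) in FHL2 cells. In CTRL cells 2 were higher (Sesn2 and Ppp1r15a) and the same 2 lower. With the GC offset no regulator was called higher, and 5 were called lower in FHL2 and 4 in CTRL. Atf4 (ENSMUSG00000042406), the factor that names the arm, had 283, 306 and 343 CPM in FHL2 day 2, against 293, 272 and 289 CPM in FHL2 day 0. CTRL cells had 297, 285 and 305 CPM at day 2, against 292, 298 and 295 CPM at day 0. The days overlapped in both lines and no change was called (log2 fold change 0.13, SE 0.083, edgeR adjusted p = 0.214 in FHL2 and 0.0023, adjusted p = 0.984, in CTRL), although after the GC offset Atf4 was called lower (-0.50, adjusted p = 0.000172, and -0.64, adjusted p = 1.93e-05).

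Ddit3 (ENSMUSG00000025408), which encodes CHOP, a factor tied to cell death under lasting stress and a partner that disables C/EBP factors, had 62.7, 73.4 and 76.1 CPM in FHL2 day 2, against 108, 98.1 and 98.7 CPM in FHL2 day 0. In CTRL it had 44.6, 46.2 and 56.4 CPM at day 2, against 81.9, 88.2 and 80.1 CPM at day 0. No day 2 library reached the day 0 values of its line, and Ddit3 fell by 0.53 on the log2 scale in FHL2 (SE 0.12, edgeR adjusted p = 0.00193) and by 0.77 in CTRL (SE 0.12, edgeR adjusted p = 9.1e-05). Its GC content is low for the arm, 45.6%, and after the GC offset the change was 0.15 and -0.050, with no call. With length added a fall in CTRL was called (-0.37, adjusted p = 0.0159). Chac1, a glutathione-degrading enzyme induced by ATF4, had 11.7, 18.4 and 14.3 CPM in FHL2 day 2, against 26.4, 23.4 and 29.9 CPM in FHL2 day 0. Its CTRL values were 6.26, 12.1 and 12.3 CPM at day 2, against 18.1, 22.6 and 22.4 CPM at day 0. It was lower in every day 2 library of each line, by 0.85 in FHL2 (edgeR adjusted p = 0.0137) and 1.04 in CTRL (edgeR adjusted p = 0.0042), and by more after the GC offset (-1.54 and -1.75). Without the offset, the FHL2 call of Chac1 was lost on leaving out FHL2 day 0 replicate 3 (adjusted p = 0.0565) or FHL2 day 2 replicate 1 (adjusted p = 0.0511).

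Atf5, a factor close to ATF4 in sequence, had 499.6, 548 and 567 CPM in FHL2 day 2, against 459, 438 and 453 CPM in FHL2 day 0. CTRL libraries gave 464, 448 and 426 CPM at day 2, against 388, 399 and 419.9 CPM at day 0. The days did not overlap in either line; the rise was called in FHL2 (log2 fold change 0.26, SE 0.075, edgeR adjusted p = 0.00937) and not in CTRL (0.15, adjusted p = 0.105). Atf5 has the highest GC content of the 33, 61.7%, and with the GC offset it was called lower in both lines (-0.49 and -0.66). The FHL2 call was lost when FHL2 day 0 replicate 2 was left out (adjusted p = 0.0510), and a CTRL call appeared without CTRL day 2 replicate 3 (adjusted p = 0.0358). Sesn2, an inhibitor of mTORC1, averaged 111 ± 10.6 CPM in FHL2 day 2 and 82.6 ± 3.75 CPM in FHL2 day 0, and 106 ± 12.7 CPM in CTRL day 2 and 75.96 ± 7.65 CPM in CTRL day 0. Ppp1r15a, the phosphatase subunit GADD34 that reverses eIF2 phosphorylation, averaged 55.3 ± 14.7 CPM in FHL2 day 2 and 38.4 ± 1.99 CPM in FHL2 day 0, and 50.5 ± 7.92 CPM in CTRL day 2 and 30.7 ± 3.09 CPM in CTRL day 0. Sesn2 was called higher by 0.42 and 0.48 and Ppp1r15a by 0.53 and 0.72 in FHL2 and CTRL, and after the GC offset Sesn2 stood at -0.29, a called fall in FHL2, and -0.27, and Ppp1r15a at -0.11 and 0.066, not called. Of Ppp1r15a the FHL2 call was lost without any 1 of the FHL2 day 0 replicates or FHL2 day 2 replicate 2 (adjusted p 0.0506 to 0.135). Atf3 and Trib3, a pseudokinase that curbs ATF4, were not called between days. Trib3 had 36.5, 62.2 and 45.3 CPM in FHL2 day 2 and 37.9, 42.3 and 46.00 CPM in FHL2 day 0, against 35.6, 29.6 and 23.7 CPM in CTRL day 2 and 36.9, 38.2 and 36.3 CPM in CTRL day 0, and the GC offset made it a called fall in both lines (-0.52 and -1.05).

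The enzymes of amino acid synthesis had called rises and no called falls without the GC offset. In FHL2 cells 5 of 8 were called higher (Asns, Phgdh, Shmt2, Mthfd2 and Aldh18a1) and in CTRL cells 3 (Shmt2, Mthfd2 and Aldh18a1), with medians of 0.33 and 0.13. Of all genes 25.8% were called higher in FHL2 and 26.3% in CTRL. Under the GC offset 3 enzymes were higher and 1 lower in FHL2 and 2 and 2 in CTRL, with medians of 0.014 and -0.020. The shares of all genes were then 20.4% and 19.7% in FHL2, and 20.7% and 19.3% in CTRL. With length added they were 19.4% each way in FHL2, and 19.8% and 19.3% in CTRL. The enzymes then had 1 higher and 2 lower in FHL2 and 2 and 2 in CTRL. Without an offset their summed level was 1070, 1163 and 1264 CPM in FHL2 day 2, against 912, 903 and 944 CPM in FHL2 day 0. In CTRL it was 1056, 1086 and 1082 CPM at day 2, against 874, 888 and 905 CPM at day 0. Every day 2 sum lay above every day 0 sum of its line. Asns (ENSMUSG00000029752), asparagine synthetase, whose promoter carries the amino acid response core, had 216, 220.2 and 270.1 CPM in FHL2 day 2, against 177, 184 and 191 CPM in FHL2 day 0. In CTRL it had 207, 235 and 193 CPM at day 2, against 182, 182 and 182 CPM at day 0. The days did not overlap, and the rise was called in FHL2 (log2 fold change 0.35, SE 0.10, edgeR adjusted p = 0.00877) and not in CTRL (0.22, adjusted p = 0.0821). Leaving out FHL2 day 2 replicate 3 ended the FHL2 call (adjusted p = 0.0538) and made a CTRL call (adjusted p = 0.0314), as did leaving out CTRL day 2 replicate 3 (CTRL adjusted p = 0.0196). After the GC offset Asns was called higher in both lines (0.66, adjusted p = 3.84e-05, and 0.54, adjusted p = 0.000239).

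Serine is made from a glycolytic intermediate by Phgdh, Psat1 and Psph in turn, and Shmt2 and Mthfd2 carry its one-carbon unit in mitochondria. Phgdh (ENSMUSG00000053398) had 107, 147 and 155 CPM in FHL2 day 2, against 98.8, 93.8 and 101 CPM in FHL2 day 0. The CTRL libraries gave 91.6, 87.7 and 101 CPM at day 2, against 86.4, 90.1 and 94.8 CPM at day 0. The FHL2 days did not overlap and the CTRL days did, with a called rise in FHL2 (log2 fold change 0.48, SE 0.13, edgeR adjusted p = 0.00503) and none in CTRL (0.045, adjusted p = 0.783). The GC offset moved these to -0.21 (adjusted p = 0.177) and -0.66 (adjusted p = 0.000459), a called fall in CTRL, and with length added it was a called fall in FHL2 as well (-0.40, adjusted p = 0.00379). The next steps had no call without the offset: Psat1 averaged 246 ± 29.6 CPM in FHL2 day 2, 229 ± 4.12 CPM in FHL2 day 0, 224 ± 19.2 CPM in CTRL day 2 and 219 ± 1.75 CPM in CTRL day 0. Psph averaged 35.01 ± 6.83 CPM in FHL2 day 2, 35.3 ± 2.34 CPM in FHL2 day 0, 30.5 ± 5.82 CPM in CTRL day 2 and 30.8 ± 2.04 CPM in CTRL day 0. Psat1 was called higher in FHL2 with the GC offset (0.28, adjusted p = 0.018) and without the 3 sparse libraries (0.28, adjusted p = 0.0269).

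Shmt2 (ENSMUSG00000025403) had 220.4, 271 and 229 CPM in FHL2 day 2, against 153, 131 and 148 CPM in FHL2 day 0. CTRL cells gave 205, 208 and 256 CPM at day 2, against 139, 138 and 138 CPM at day 0. It was the largest rise of the arm that was called in FHL2, 0.74 (edgeR adjusted p = 5.74e-05), with 0.69 in CTRL (edgeR adjusted p = 0.000102), and it was near 0 after the GC offset (0.044 and -0.026). Mthfd2 averaged 95.2 ± 7.32 CPM in FHL2 day 2 and 72.3 ± 4.24 CPM in FHL2 day 0, and 89.7 ± 5.37 CPM in CTRL day 2 and 64.9 ± 4.15 CPM in CTRL day 0. Its rises of 0.40 and 0.47 were called and held with the GC offset at 0.38 and 0.45, though with length added only in CTRL (0.22, adjusted p = 0.106 in FHL2, and 0.32, adjusted p = 0.0216 in CTRL). In proline synthesis, Aldh18a1, the first enzyme, averaged 146 ± 19.6 CPM in FHL2 day 2 and 118 ± 6.79 CPM in FHL2 day 0, and 161 ± 13.6 CPM in CTRL day 2 and 122 ± 3.21 CPM in CTRL day 0. The rises of 0.31 and 0.40 were called, turned to -0.20 and -0.12 with the GC offset, and in FHL2 were lost without FHL2 day 0 replicate 1 or 2 or FHL2 day 2 replicate 1 or 3 (adjusted p 0.0598 to 0.11). Pycr1, the last enzyme, was not called, with 21.1, 41.1 and 33.4 CPM in FHL2 day 2 and 39.6, 40.99 and 36.6 CPM in FHL2 day 0, and 42.3, 32.9 and 47.9 CPM in CTRL day 2 and 40.2, 40.4 and 44.05 CPM in CTRL day 0. With the GC offset it was called lower in both lines (-0.82 and -0.55).

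FHL2 cells were also set against CTRL cells at the same day. The construct and any other difference between the 2 lines cannot be told apart here. Fhl2 itself differed by 0.036 on the log2 scale at day 0 and by 0.075 at day 2, neither called. At day 0 none of the 33 was called by edgeR, where 0.0485% of all genes were. Neither limma-voom nor DESeq2 called a member, where they called 0.125% and 0.644% of all genes. In 9 members every FHL2 library lay above every CTRL library, where 10.5% of all genes did, and in 2 every FHL2 library lay below, where 11.1% did. Of the 9, 7 belong to the ATF4 arm (Atf3, Atf5, Ddit3, Chac1, Ppp1r15a, Psat1 and Psph) and 2 to the ER arm (Sdf2l1 and Hyou1); the 2 below were Syvn1 and Pdia6 of the ER arm. Atf3 had 7.51, 7.17 and 6.78 CPM in FHL2 cells, against 4.34, 5.34 and 3.12 CPM in CTRL cells at day 0 (log2 fold change 0.74, SE 0.44, edgeR adjusted p = 1.0). Ddit3, whose day 0 values are given above, differed by 0.29 (SE 0.12, edgeR adjusted p = 1.0) and Hyou1 by 0.23 (SE 0.090, edgeR adjusted p = 0.957). The median difference was 0.14 over the ATF4 arm and 0.049 over the ER arm, beside -0.018 over all genes.

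At day 2, 2 members were called, both higher in FHL2 cells and both of the ATF4 arm, where 0.72% of all genes were called higher and 1.35% lower (2.07% in all). Ddit3 had 62.7, 73.4 and 76.1 CPM in FHL2 cells, against 44.6, 46.2 and 56.4 CPM in CTRL cells. Every FHL2 library lay above every CTRL library (log2 fold change 0.53, SE 0.12, edgeR adjusted p = 0.0415). Phgdh had 107, 147 and 155 CPM in FHL2 cells, against 91.6, 87.7 and 101 CPM in CTRL cells, again without overlap (log2 fold change 0.55, SE 0.13, edgeR adjusted p = 0.0419). Both calls were narrow. That of Ddit3 was lost on leaving out any 1 of the 12 libraries except FHL2 day 2 replicate 1 or CTRL day 2 replicate 3 (adjusted p 0.0660 to 0.0912), and that of Phgdh on leaving out any 1 except FHL2 day 2 replicate 1 (0.0660 to 0.122). In a fit of the 6 day 2 libraries alone neither was called (adjusted p = 0.374 and 0.257), nor any other member, where 0.304% of all genes were, and with the 3 sparse day 2 libraries set aside, 3 members were called higher and 2 lower where 10.1% of all genes were called, a fit in which the 1 remaining FHL2 library is assumed to vary like the other groups. After the GC offset, under which 2.73% of all genes were called, Phgdh was still called (0.55, adjusted p = 0.026), Ddit3 was not (0.51, adjusted p = 0.0527) and Atf5 was (0.33, adjusted p = 0.0388). A Phgdh pseudogene is annotated too, and reads that both share make its value less certain. The adipocyte markers, lower in FHL2 at day 2 as given above, moved with this comparison, and their part in it was not tested.

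Beside the called pair, Atf5, Trib3 and Creld2 also had every FHL2 library above every CTRL library at day 2, so that 5 members did where 7.28% of all genes did; no member lay wholly below, where 7.41% of all genes did. Trib3 had 36.5, 62.2 and 45.3 CPM in FHL2 cells, against 35.6, 29.6 and 23.7 CPM in CTRL cells (log2 fold change 0.69, SE 0.20, edgeR adjusted p = 0.087). Without FHL2 day 2 replicate 1 it was called (0.85, adjusted p = 0.0385). Atf5 differed by 0.27 (edgeR adjusted p = 0.081) and Creld2 by 0.33 (edgeR adjusted p = 0.2), and DESeq2 called Atf5 (adjusted p = 0.00248) and Trib3 (adjusted p = 0.0241) in addition to Ddit3 and Phgdh, where it called 6.91% of all genes. Among the 8 regulators the median difference at day 2 was 0.40, among the 8 enzymes 0.12 and over the ER arm -0.063, beside 0.0091 over all genes. In the ER arm no member was called at day 2 with all 12 libraries. The smallest adjusted p there, after that of Creld2, were those of Sel1l at -0.28 (edgeR adjusted p = 0.211) and Herpud1 at 0.24 (edgeR adjusted p = 0.238). With the 3 sparse day 2 libraries set aside, Sel1l stood at -0.64 and Atf6 at -0.76, and Psph of the ATF4 arm at 0.59. That fit leaves 1 FHL2 library at day 2, and the share of all genes called in it, given above, counts both directions together.

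**Figure D5:**
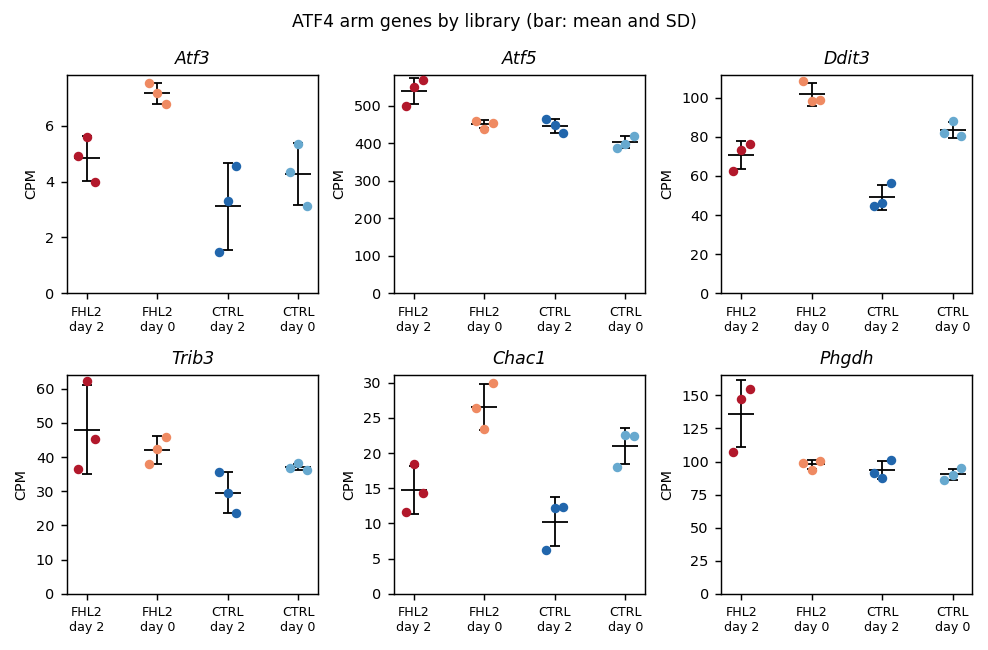
CPM of 6 ATF4 arm genes in each of the 12 libraries, 3 points per group, with the mean and 1 SD in black and each vertical axis starting at 0. The Ddit3 points of FHL2 lie above those of CTRL at both days, a difference narrowly called at day 2 and not called at day 0. In both lines they lie lower at day 2 than at day 0. Phgdh stands out in the FHL2 day 2 libraries, where its lowest library, 107 CPM, is above the highest CTRL day 2 library, 101 CPM.

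Whether the change between days itself differed between the lines was tested as an interaction. No member was called by edgeR, limma-voom or DESeq2, where edgeR called 0.00693% and DESeq2 0.506% of all genes. The member with the smallest p was Phgdh, whose change was larger in FHL2 than in CTRL by 0.43 on the log2 scale (SE 0.18, unadjusted p = 0.0294, edgeR adjusted p = 0.665). The 6 genes called between days in FHL2 and not in CTRL (Asns, Atf5 and Phgdh higher, Atf6, Edem1 and Sel1l lower) are thus not shown to differ between the lines.

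Other genes of the pathway were read from 6 further lists. At day 2, 0.72% of all genes tested were called higher and 1.35% lower in FHL2 than in CTRL. Between lines at day 2, 3 of 29 tested further ATF4 targets were called, 1 higher and 2 lower in FHL2. Slc6a9, a glycine transporter, was higher, with 49.98, 47.1 and 36.2 CPM in FHL2 cells, against 31.9, 21.2 and 28.2 CPM in CTRL cells (log2 fold change 0.71, adjusted p = 0.0474). Mthfd1l, a mitochondrial enzyme of one-carbon metabolism, was lower, with 49.5, 42.7 and 47.3 CPM in FHL2, against 78.2, 97.9 and 76.7 CPM in CTRL (log2 fold change -0.86, adjusted p = 0.00521). Slc38a2, a transporter of neutral amino acids, was also lower, with 98.2, 77.04 and 79.5 CPM in FHL2, against 138, 124 and 137 CPM in CTRL (log2 fold change -0.64, adjusted p = 0.00653). No libraries of the 2 lines overlapped for these 3 genes, 1 of which went the way of Ddit3 and Phgdh and 2 the other way. The call of Slc6a9 lay closer to the threshold than those of Ddit3 and Phgdh. Calls from these lists are not given here for the fits that leave out 1 library or use day 2 libraries alone. Of 27 further ER chaperones 1 was called higher (Serp1, log2 fold change 0.43, adjusted p = 0.0482) and 2 lower (Ero1l, log2 fold change -0.76, adjusted p = 0.0138, and P4hb, log2 fold change -0.36, adjusted p = 0.0216), and the call of Serp1 was lost with the GC offset (0.39, adjusted p = 0.0862). Ero1l, the oxidase that recharges disulfide isomerases such as P4hb, had 55.04, 60.8 and 53.2 CPM in FHL2, against 91.7, 110.5 and 83.6 CPM in CTRL. Of 27 ER translocation and membrane factors 1 was called lower in FHL2, Creb3l1 (log2 fold change -0.62, adjusted p = 0.0295), a membrane-bound factor related to ATF6. The 16 genes of eIF2 and its kinases, 20 cytosolic aminoacyl-tRNA synthetases and 22 further ER-associated degradation genes had no call by edgeR at day 2, and none of the 6 lists had one at day 0.

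Between days these lists moved both ways. Of all genes tested, 25.8% were called higher and 30.2% lower in FHL2, and 26.3% and 30.8% in CTRL. With the GC offset the shares were 20.4% and 19.7% in FHL2, and 20.7% and 19.3% in CTRL. Whether a list differs from these shares was not tested. Of the 29 further ATF4 targets 9 were called higher and 9 lower in FHL2, and 9 higher and 11 lower in CTRL, with medians of -0.084 and -0.13 beside -0.11 and -0.14 over all genes, and with the GC offset 8 higher and 13 lower in FHL2 and 10 and 10 in CTRL. Nfil3, a basic leucine zipper factor, had 110.3, 90.3 and 99.9 CPM in FHL2 day 2, against 9.29, 10.3 and 7.59 CPM in FHL2 day 0 (log2 fold change 3.47, adjusted p = 9.09e-10), with 3.64 in CTRL. Aldh1l2, a mitochondrial folate enzyme, had 41.04, 53.7 and 55.7 CPM in FHL2 day 2, against 192, 216 and 203 CPM in FHL2 day 0 (log2 fold change -2.02, adjusted p = 1.53e-07), with -2.45 in CTRL, and both genes kept their calls with the GC offset. Of the further ER chaperones 8 were called higher and 12 lower in FHL2 and 8 and 11 in CTRL, but 11 higher and 6 lower and 10 and 4 with the GC offset. Hsp90b1, the ER member of the HSP90 family, had 329.8, 318 and 283 CPM in FHL2 day 2, against 959, 778 and 745 CPM in FHL2 day 0 (log2 fold change -1.42, adjusted p = 9.1e-07), and like Canx it stood near 0 after the offset (-0.085, adjusted p = 0.456). Eif2ak2, the kinase PKR that reads double-stranded RNA, was lower at day 2 in FHL2 (log2 fold change -2.99, adjusted p = 2.15e-05) and in CTRL (log2 fold change -3.52, adjusted p = 6.01e-06), and remained so with the offset (-2.00 and -2.45). In the list of eIF2 and its kinases 5 were called higher and 8 lower in FHL2 and 6 and 8 in CTRL, with medians of -0.76 and -0.62. With the offset 3 were higher and 5 lower in FHL2 and 4 and 4 in CTRL, with medians of 0.064 and 0.21. The synthetases had 8 higher and 9 lower in FHL2 and 9 and 8 in CTRL, and with the offset 4 and 7 in each line. Of the further degradation genes 8 were higher and 6 lower in FHL2 and 10 and 7 in CTRL, and with the offset 8 and 4 in each line. Of the translocation and membrane factors 13 were higher and 10 lower in FHL2 and 12 and 9 in CTRL, and with the offset 15 and 4 in FHL2 and 13 and 5 in CTRL.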

How the data were processed

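Polyadenylated RNA was sequenced as stranded libraries from 12 samples in 4 groups of 3, grouped by the labels. The authors deposited raw counts per Ensembl gene in 1 table. Per the submitters' processing notes the build was GRCm39 and the tools included HISAT2 2.2.1 and HTSeq 0.11.0 beside Trimmomatic 0.39; the strand setting used in counting is not known here.

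Genes were tested with edgeR 4.0.16 (R 4.3.3): filterByExpr by group, TMM scaling, a quasi-likelihood fit of 1 mean per group over all 12 libraries, 2-sided p-values adjusted by Benjamini-Hochberg over 14435 genes. CPM use TMM-scaled totals. Symbols, exon length and GC content of the longest transcript came from GENCODE M21 (GRCm38) by identifier, for 99.8% of tested genes. The GC offset is a loess curve (span 0.3) per library over genes of at least 5 CPM. Alternatives were RLE and upper-quartile scaling, other filters, limma-voom 3.58.1, DESeq2 1.42.0, the replicate number as a block, GC and length offsets, fewer groups and fewer libraries. The fit was also run on simulated counts with 1 spread per gene in all groups. Those cannot check the fit where day 2 libraries vary more. Ddit3 has a second, short identifier without counts, which was not used.

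The members and lists were chosen with earlier results of these data known. Named genes are the 33 members, Fhl2, and per further list and comparison up to 3 called genes of the largest absolute change that averaged 5 CPM or more; not all are printed.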

Additional observations from a re-analysis of the deposited data

How the results depend on the processing

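The totals of called members, higher and lower together, stayed within 1.5 times in every alternative that could be fitted, except for FHL2 against CTRL at day 2. Between days the split did not stay: the GC offset gave 8 higher and 9 lower in each line, and GC and length offsets 6 and 10 in FHL2 and 10 and 11 in CTRL, in place of 15 and 8 in FHL2 and 12 and 5 in CTRL, and many of the called genes differed. Without FHL2 day 0 replicate 3 the FHL2 split was 14 and 5. Between lines at day 2 the count of 2 became 0 with upper-quartile scaling, 0 in a fit of only the libraries compared, 4 with DESeq2, 1 with GC and length offsets, and 5 with the 3 sparse day 2 libraries (CTRL replicate 3 and FHL2 replicates 1 and 2) set aside. Of 14435 genes tested, 299 were called in the main fit of that comparison, 289 with upper-quartile scaling and 366 with GC and length offsets. DESeq2 called 6.91% of all genes there, and the fit of only the libraries compared 0.304%. Leaving out 1 library gave 0 to 3 members for FHL2 against CTRL at day 2, and 0 to 0 at day 0 and for the interaction. Between days it gave 19 to 23 in FHL2 and 16 to 19 in CTRL. The shares of all genes called are not given here for the fits without 1 library or with the replicate block. RLE and upper-quartile scaling and DESeq2 moved the median of all genes by less than 0.1 and turned no member that was called with or without them. Uncalled members near 0 did turn, such as Atf4 between days in CTRL (0.0023 with TMM scaling) with RLE scaling and DESeq2. Same-numbered replicates did not pair: their deviations from the group means correlated between -0.086 and 0.105. With the replicate block 1 member was called between the lines at day 2 (Ddit3 had an adjusted p of 0.0623), and 1 with the block and the GC offset. The block left the other counts within 1.5 times and made Herpud1 a called fall between days in CTRL (adjusted p = 0.0486).

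Turned directions of members called with or without the alternative, as log2 changes of day 2 over day 0, came with the GC offsets, by their construction along GC content. With the GC offset these were in FHL2 Aldh18a1 -0.20, Atf4 -0.50, Atf5 -0.49, Ddit3 0.15, Edem1 0.0031, Phgdh -0.21, Ppp1r15a -0.11, Sel1l 0.017, Sesn2 -0.29 and Trib3 -0.52, and in CTRL Aldh18a1 -0.12, Atf4 -0.64, Atf5 -0.66, Canx 0.092, Edem1 0.40, Phgdh -0.66, Sesn2 -0.27 and Shmt2 -0.026. With length added they were in FHL2 Aldh18a1 -0.21, Atf4 -0.68, Atf5 -0.69, Atf6 0.26, Canx 0.062, Edem1 0.30, Phgdh -0.40, Ppp1r15a -0.21, Sdf2l1 -0.25, Sel1l 0.31, Sesn2 -0.30, Shmt2 -0.093 and Trib3 -0.69, and in CTRL Aldh18a1 -0.13, Atf4 -0.78, Atf5 -0.82, Atf6 0.54, Canx 0.14, Creld2 -0.12, Edem1 0.62, Phgdh -0.82, Ppp1r15a -0.0085, Sdf2l1 -0.20, Sel1l 0.42, Sesn2 -0.28 and Shmt2 -0.15. With the replicate block and the GC offset they were in FHL2 Aldh18a1 -0.20, Atf4 -0.50, Atf5 -0.49, Ddit3 0.14, Phgdh -0.22, Ppp1r15a -0.14, Sel1l 0.010, Sesn2 -0.29 and Trib3 -0.54, and in CTRL Aldh18a1 -0.12, Atf4 -0.65, Atf5 -0.66, Canx 0.090, Edem1 0.39, Phgdh -0.66, Sesn2 -0.27 and Shmt2 -0.029. Uncalled in both fits, Pdia6 also turned in both lines and Atf6 and Sel1l in CTRL with the GC offset, with and without the block. Atf3, at 1.48 to 7.51 CPM, rests on the fewest counts.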
